A study of Mus musculus with 15 samples.

Results

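Transcripts of 8 genes for ion transport across epithelia were measured by RNA-Seq in conjunctival tissue of mice with skin inflammation–evoked conjunctivitis. They encode the anion exchanger pendrin (*Slc26a4*), the chloride channels CFTR (*Cftr*) and TMEM16A (*Ano1*), the nongastric proton–potassium ATPase (*Atp12a*), the sodium–potassium–chloride cotransporter NKCC1 (*Slc12a2*) and the α, β and γ subunits of the epithelial sodium channel ENaC (*Scnn1a*, *Scnn1b* and *Scnn1g*). The 8 genes were chosen by name for their function, out of 55487 genes listed and with earlier results of these data known. All 8 were among the 19006 genes tested. The mice were WT females of 9 to 12 weeks, with the strain given as BALC/c in the labels and BALB/c in the methods. All were sensitized through the skin with 2.5 nmol MC903 (calcipotriol, an analog of vitamin D) for 7 days together with ovalbumin (OVA). From day 18 the eyes were challenged daily for 7 days with PBS (PBS group) or with 250 µg OVA, and tissue was collected on day 24. OVA-challenged mice received 25 mg/kg of an antibody, either anti–IL-4Rα (anti–IL-4Rα group) or its isotype control (isotype group), and the antibody of the PBS group is labeled N/A. Comparisons with the PBS group may thus differ in antibody injection as well as in OVA, and these cannot be told apart. Each group had 5 libraries, of 48622246 to 87745024 counts. The 3 comparisons between groups share libraries and are therefore not independent of one another.

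At a mucosal surface, secreted chloride and bicarbonate draw water onto the epithelium, and sodium taken up through ENaC draws it back. NKCC1 loads cells with chloride from the basolateral side, CFTR and TMEM16A release it apically, and pendrin exchanges it for bicarbonate, iodide or thiocyanate. In airway epithelium, IL-4 and IL-13 are known to raise the transcripts of several anion transporters and to lower those of ENaC subunits.

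Some libraries stood apart before any comparison. The anti–IL-4Rα libraries, except replicate 3, held far more transcripts of lacrimal acinar genes than most others. All 6 of 6 genes of that list were tested, *Pip* was the most abundant, and their summed level was 8153, 4314, 109, 11750 and 10980 counts per 1000000 (CPM) in anti–IL-4Rα replicates 1 to 5. It was 29.9, 277, 26.2, 586 and 3901 CPM in PBS replicates 1 to 5 and 2606, 56.7, 650, 2368 and 416 CPM in isotype replicates 1 to 5. PBS replicate 5 was high for its group, and the 3 groups overlapped. Tear proteins that the study itself picked from these libraries (4 genes, mostly *Mucl2*) reached 145600 CPM in anti–IL-4Rα replicate 4, also the highest library for the lacrimal list. The TMM factors used in scaling were 0.87, 0.93, 1.09, 0.80 and 0.82 in anti–IL-4Rα replicates 1 to 5. Because lacrimal transcripts varied in this way, a score of the lacrimal list was used as a covariate in an alternative fit. Whether gland tissue taken with the conjunctiva or a treatment effect on these genes made the difference was not tested, and the score is tied to the anti–IL-4Rα group, whose replicates 1, 2, 4 and 5 have the 4 highest scores (2.49 to 3.66).

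Other tissues were covered by further lists. All 11 of 11 conjunctival epithelial genes were tested and summed to 2981 to 4912 CPM per library, with *Krt13* the most abundant, and 6 of 7 goblet cell genes summed to 1330 to 2212 CPM, with *Muc5ac* the most abundant and *Tff3* at 3 or fewer counts in every library. The 3 of 3 corneal genes tested, of which *Aldh3a1* was the most abundant, summed to 841 to 1102 CPM (PBS), 426 to 838 CPM (isotype) and 717 to 1040 CPM (anti–IL-4Rα). The 9 of 9 skeletal muscle genes, with *Myh4* the most abundant, summed to 6480 to 11910 CPM (PBS), 3979 to 6096 CPM (isotype) and 5123 to 7583 CPM (anti–IL-4Rα). Of these muscle genes 7 were called lower in isotype versus PBS, beside 7.49% of all tested genes. Leukocyte genes (7 of 8 tested, *Itgam* the most abundant, *Epx* at 3 or fewer counts throughout) summed to 146 to 186 CPM (PBS), 172 to 290 CPM (isotype) and 161 to 241 CPM (anti–IL-4Rα). Meibomian genes (7 of 7, mostly *Scd1*, 5152 to 15880 CPM) and epidermal and hair genes (6 of 6, mostly *Krt10*, 8963 to 18600 CPM) held no gene called in any comparison. Their medians still shifted. The epidermal and hair list had a median log2 fold change of 0.755 in isotype versus PBS and −0.841 in anti–IL-4Rα versus isotype. In anti–IL-4Rα versus PBS it was −0.118. For the meibomian list the medians were −0.247, 0.388 and 0.172 in the same order. Of airway ionocyte markers 6 of 7 were tested, summing to 114 to 209 CPM per library, with *Atp6v1c2* the most abundant and *Atp6v1g3* at 3 or fewer counts in every library. Endothelial genes (3 of 3 tested) were mostly *Pecam1*. Marker genes called in isotype versus PBS, besides muscle genes, were *Aldh3a1*, *Slurp1* (cornea) and *Amy1* (lacrimal gland), all lower, and *Ptprc*, *Adgre1* (leukocytes), *Pecam1* and *Spdef* (goblet cells), all higher. *Amy1* was the only lacrimal gene called there, and the median log2 fold change of the lacrimal list was 0.36. Those called in anti–IL-4Rα versus isotype, ionocyte genes set aside, were *Krt18*, *Pax6* (conjunctiva), *Krt12* (cornea) and *Amy1*, all higher, and *Spdef* was higher in anti–IL-4Rα versus PBS. The called markers are named after their values were seen.

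In the set of 8 there was 1 gene under an adjusted p of 0.05 in the edgeR quasi-likelihood test of isotype versus PBS, and it was lower. Among all tested genes 3235 (17.0%) passed in that comparison, 1812 (9.53%) higher and 1423 (7.49%) lower. In anti–IL-4Rα versus isotype 2 of the 8 passed and both were lower, against 2826 (14.9%) of all genes, 1280 (6.73%) higher and 1546 (8.13%) lower. In anti–IL-4Rα versus PBS 2 passed and both were lower, against 707 (3.72%) of all genes, 434 (2.28%) higher and 273 (1.44%) lower. The same shares of all genes stand beside the counts of calls in every gene list. The median log2 fold change of the 8 genes was −0.01, −0.15 and −0.27 in the 3 comparisons in turn, and over all tested genes it was −0.01, 0.01 and −0.00. No value in 1 group overlapped the other for 1, 2 and 1 of the 8 genes, beside 12.3%, 7.31% and 6.1% of all tested genes. These values cannot tell fewer cells of a kind apart from less RNA per cell. A p that misses the threshold does not show that values did not differ.

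The counts over all genes depended on scaling and on single libraries. With upper quartile factors the genes higher and lower were 1479 and 1844 in isotype versus PBS (44.5% higher, against 56.0%) and 354 and 336 in anti–IL-4Rα versus PBS (51.3% higher, against 61.4%). Limma on log2(CPM + 1) gave 43.1% and 42.0% higher in these comparisons, and on log2(FPKM + 1) 42.9% and 38.2%. Isotype versus PBS held 2018 genes without PBS replicate 2, 2098 without PBS replicate 5, 2040 without isotype replicate 2 and 1863 without isotype replicate 3. Anti–IL-4Rα versus isotype held 1124, 882 and 1418 genes without isotype replicates 2, 3 and 5, and 1060, 1436, 1164 and 1446 without anti–IL-4Rα replicates 1, 2, 4 and 5. Anti–IL-4Rα versus PBS held 82, 82, 265 and 135 genes without PBS replicates 1 to 4, 462 and 457 without isotype replicates 3 and 4, and 122, 229, 2029, 276 and 124 without anti–IL-4Rα replicates 1 to 5.

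**Figure D1:**
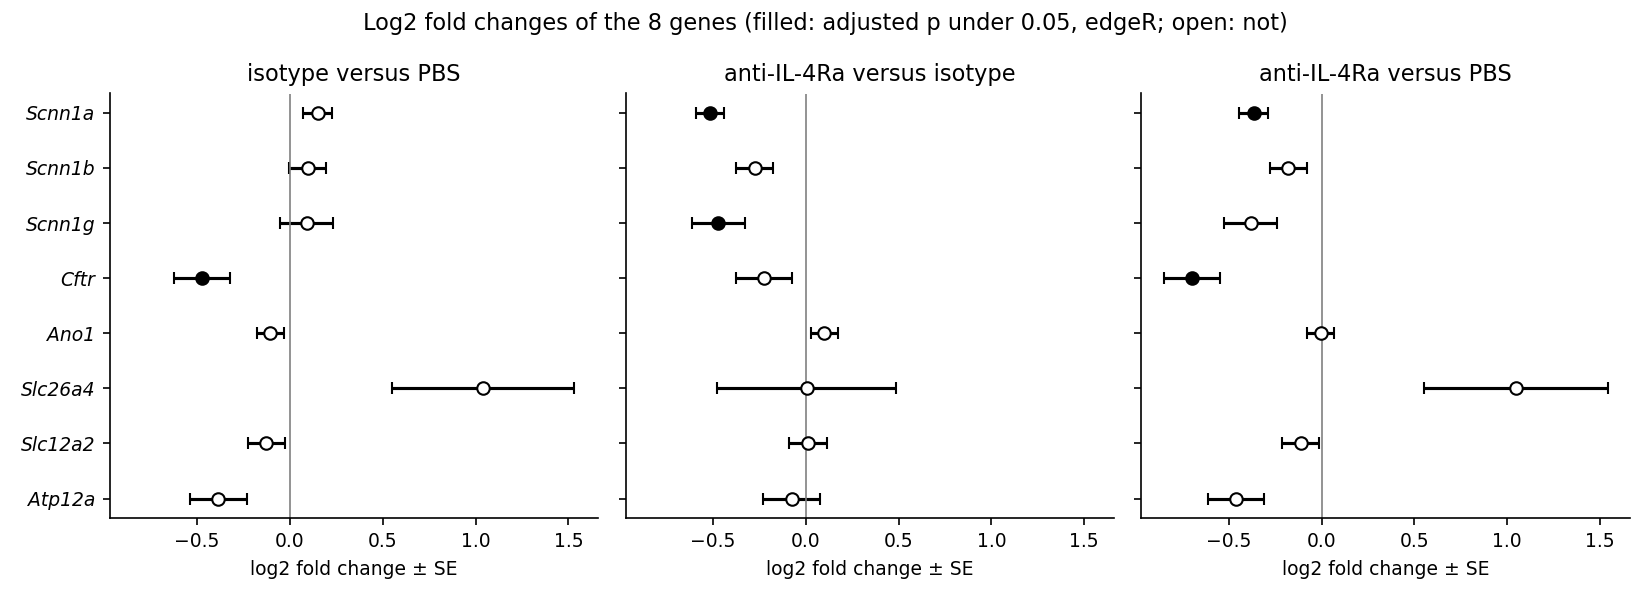
Log2 fold change of each of the 8 genes in the 3 comparisons, with bars of 1 SE and filled points where adjusted p was under 0.05 (5 libraries per group). *Scnn1a* in anti–IL-4Rα versus isotype lies at −0.52 with the smallest adjusted p of the genes shown, 0.00254.

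Levels of the 8 genes can be compared with one another per length of exon. In CPM per kb of exon, the PBS group had *Scnn1a* at 18.5 ± 2.07 (mean ± SD, n = 5), *Atp12a* at 12.3 ± 2.02, *Ano1* at 8.89 ± 0.565, *Slc12a2* at 8.27 ± 0.557, *Scnn1b* at 5.52 ± 0.770, *Scnn1g* at 2.19 ± 0.401, *Cftr* at 0.616 ± 0.124 and *Slc26a4* at 0.264 ± 0.0667. The ranges of neighbors in this order were separate except for *Ano1* and *Slc12a2*, and *Ano1* was above *Slc12a2* in 5 of 5 libraries. In the isotype group the first 6 kept their order, at 20.6 ± 1.43, 9.42 ± 1.41, 8.26 ± 0.847, 7.58 ± 1.24, 5.90 ± 0.512 and 2.33 ± 0.409, and *Slc26a4* (0.546 ± 0.185) came before *Cftr* (0.445 ± 0.0471). Ranges overlapped there between *Atp12a* and *Ano1*, *Ano1* and *Slc12a2*, *Slc12a2* and *Scnn1b*, and *Slc26a4* and *Cftr*. By means, the anti–IL-4Rα group had the order of the isotype group, at 14.4 ± 1.22, 8.94 ± 1.95, 8.86 ± 0.592, 7.64 ± 0.694, 4.88 ± 0.484 and 1.68 ± 0.202 for the first 6, 0.553 ± 0.579 for *Slc26a4* and 0.380 ± 0.0746 for *Cftr*. Replicate 4 carried the place of *Slc26a4*, which was above *Cftr* in only 2 of 5 libraries. In that group *Slc26a4* overlapped *Cftr* and, through replicate 4, *Scnn1g*, and *Atp12a* overlapped *Ano1*, as *Ano1* did *Slc12a2*.

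**Figure D2:**
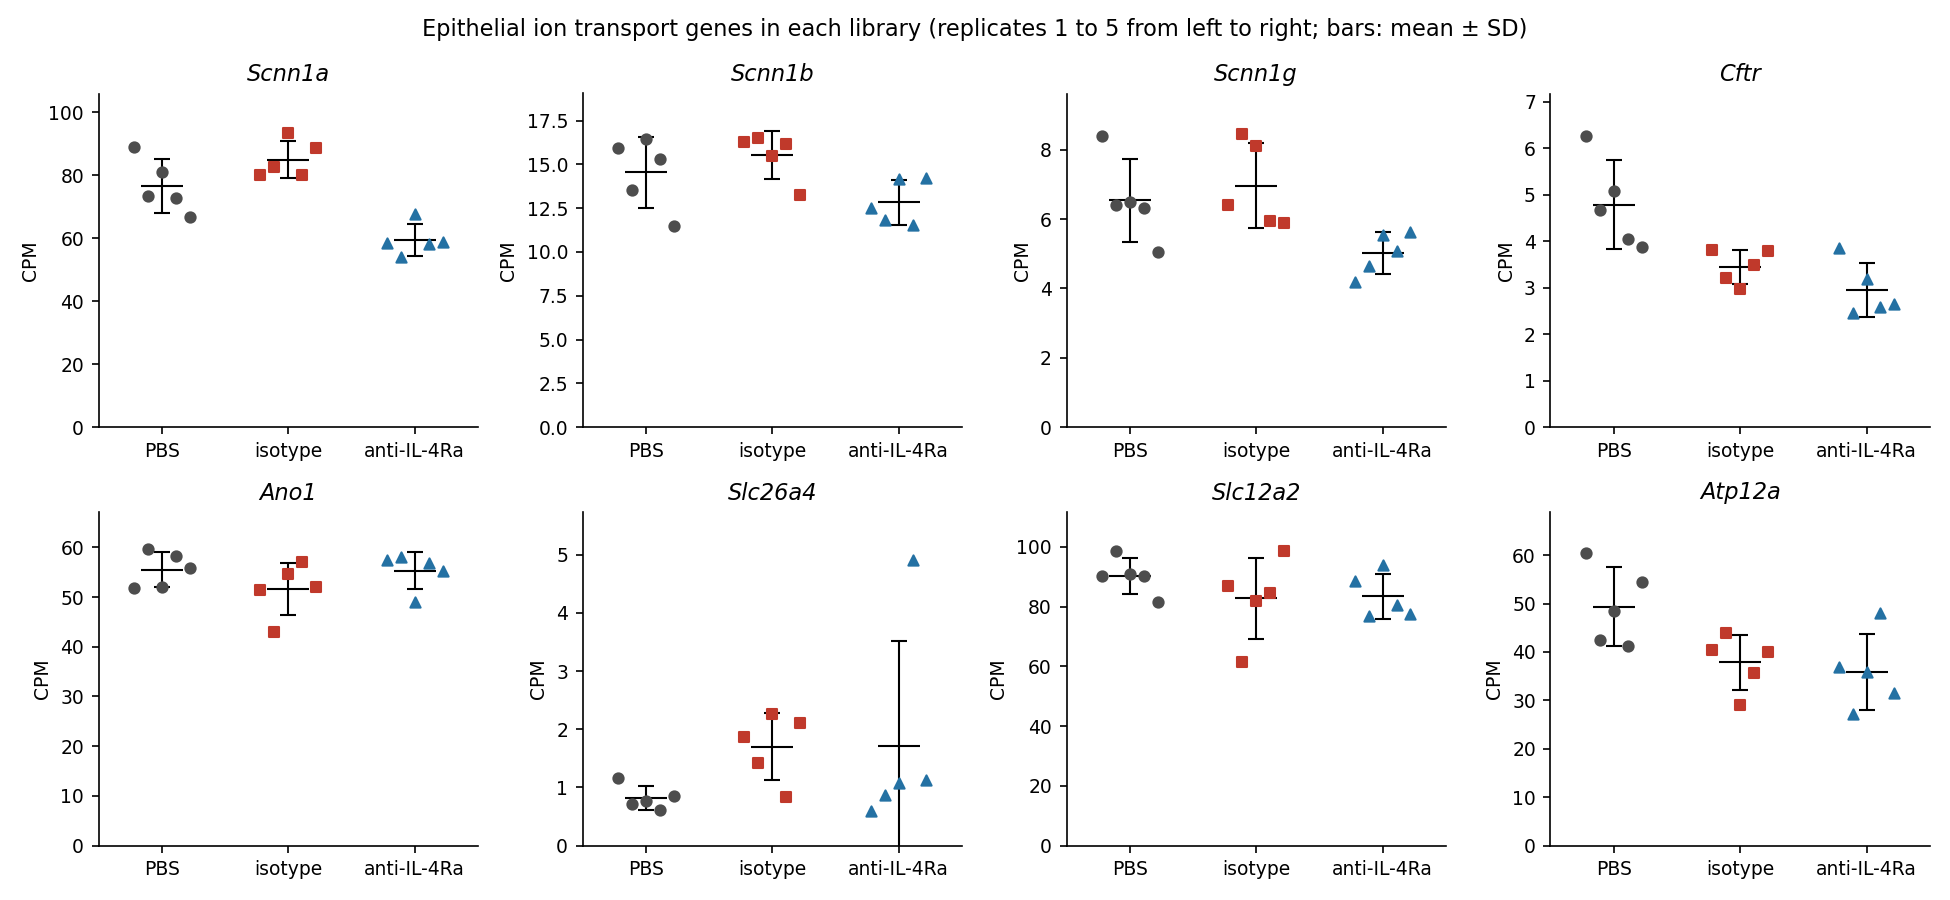
CPM of each of the 8 genes in every library of the PBS, isotype and anti–IL-4Rα groups, with group mean ± SD (5 libraries per group). *Slc26a4* in anti–IL-4Rα replicate 4 (4.92 CPM) stands apart from the other 4 libraries of its group (0.597 to 1.13 CPM).

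*Scnn1a* (chromosome 6, plus strand, 125320659 to 125344943) showed the clearest difference. It was 80.1, 82.5, 93.6, 80.2 and 88.6 CPM in isotype replicates 1 to 5, 58.6, 54.0, 67.7, 58.1 and 58.9 CPM in anti–IL-4Rα replicates 1 to 5, and 88.9, 73.4, 81.0, 72.7 and 66.7 CPM in PBS replicates 1 to 5. No anti–IL-4Rα value reached the lowest isotype value, whereas 4 anti–IL-4Rα libraries were below all PBS libraries and the PBS and isotype groups overlapped. *Scnn1a* fell by 30.0% in anti–IL-4Rα versus isotype (log2 fold change −0.52, SE 0.08, adjusted p = 0.00254, exact permutation p = 0.00794, n = 5 and 5). It passed in all 15 fits that left out 1 library (adjusted p 0.00161 to 0.0103) and in all 10 other ways of testing (log2 fold change −0.56 to −0.43).

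*Scnn1a* also fell in anti–IL-4Rα versus PBS (−0.36, SE 0.08, adjusted p = 0.0299). That call did not hold without PBS replicate 1, 2, 3 or 4 (adjusted p 0.0740, 0.0683, 0.0590 and 0.0562) or anti–IL-4Rα replicate 1, 2, 4 or 5 (0.0658, 0.0595, 0.0586 and 0.0651). The change from PBS to isotype was 0.15 (SE 0.08, adjusted p = 0.194).

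*Scnn1g* (chromosome 7, plus strand, 121734479 to 121768475) was 6.40, 8.45, 8.10, 5.96 and 5.89 CPM in isotype replicates 1 to 5, 4.20, 4.66, 5.55, 5.09 and 5.62 CPM in anti–IL-4Rα replicates 1 to 5, and 8.40, 6.41, 6.49, 6.33 and 5.04 CPM in PBS replicates 1 to 5. All anti–IL-4Rα libraries were below all isotype libraries, though by little at isotype replicates 4 and 5, and PBS replicate 5 lay among the anti–IL-4Rα values. It fell by 27.9% in anti–IL-4Rα versus isotype (log2 fold change −0.47, SE 0.14, adjusted p = 0.0422). The call was lost without PBS replicate 2, 3 or 4 (adjusted p 0.0539, 0.0529 and 0.0551), isotype replicate 2 or 3 (0.107 and 0.104) or anti–IL-4Rα replicate 1, 2, 4 or 5 (0.0989, 0.0881, 0.0797 and 0.0558), while the change stayed at −0.53 to −0.39 over all 15 such fits. Its changes of 0.09 in isotype versus PBS (adjusted p = 0.700) and −0.38 in anti–IL-4Rα versus PBS (adjusted p = 0.130) did not pass.

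*Scnn1b* starts 96562 bases beyond the end of *Scnn1g* on the same strand (121865038 to 121918514), and the opposite-strand gene *Cog7* overlaps it without sharing exon bases. It had 14.5 ± 2.03, 15.5 ± 1.35 and 12.8 ± 1.28 CPM (mean ± SD, n = 5) in the PBS, isotype and anti–IL-4Rα groups. The difference between anti–IL-4Rα and isotype was −0.28 (SE 0.10, adjusted p = 0.0764), and without PBS replicate 5 its adjusted p was 0.0451. The other comparisons gave 0.10 (isotype versus PBS, adjusted p = 0.542) and −0.18 (anti–IL-4Rα versus PBS, adjusted p = 0.301). Whether the subunits differed in the size of their changes was examined only through their ratios.

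The log2 ratio of *Scnn1b* to *Scnn1a* was −2.40 ± 0.12, −2.45 ± 0.20 and −2.21 ± 0.10 (mean ± SD, n = 5) in the PBS, isotype and anti–IL-4Rα groups. It differed by 0.24 between anti–IL-4Rα and isotype (exact permutation p = 0.0317, 0.143 after adjustment over 6 ratio tests), by 0.19 between anti–IL-4Rα and PBS (p = 0.0476, adjusted 0.143) and by −0.05 between isotype and PBS (p = 0.635, adjusted 0.771). For *Scnn1g* to *Scnn1a* the differences were 0.06, −0.01 and −0.06 in the same order (exact permutation p = 0.643, 0.960 and 0.563). Neither ratio separated any groups, and the difference of the *Scnn1b* ratio kept its sign whichever library was left out (0.17 to 0.28 between anti–IL-4Rα and isotype, 0.15 to 0.23 between anti–IL-4Rα and PBS).

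**Figure D3:**
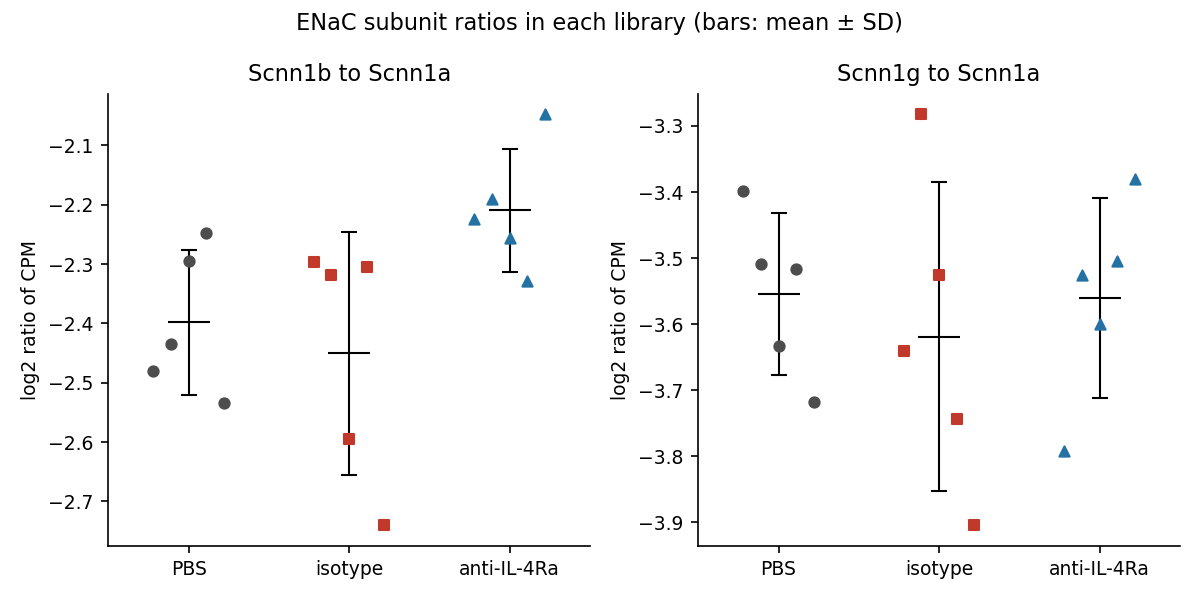
Log2 ratios of *Scnn1b* and *Scnn1g* to *Scnn1a* in each library, with group mean ± SD (5 libraries per group). The ratio of *Scnn1b* in the anti–IL-4Rα group (mean −2.21) overlaps the other groups.

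With the lacrimal gland score as a covariate, *Scnn1a* was lower in anti–IL-4Rα than in isotype by −0.43 (adjusted p = 0.00483, within 1.75e-07 to 0.00720 over the 10 other ways), while *Scnn1g* was at −0.31 (adjusted p = 0.163, the highest of 0.0135 to 0.163) and *Scnn1b* at −0.19 (adjusted p = 0.276, the highest of 0.0422 to 0.276). In anti–IL-4Rα versus PBS *Scnn1a* was then at −0.24 (adjusted p = 0.129, the highest of 0.00128 to 0.129). Anti–IL-4Rα replicate 3, whose score of −1.90 lies among those of the other groups, had 67.7 CPM of *Scnn1a*, below the lowest isotype library but the highest of its own group. PBS replicate 5, with the highest score of the PBS group (2.38), had the lowest *Scnn1a*, *Scnn1b* and *Scnn1g* of that group, and isotype replicates 1 and 4, with the highest scores of theirs (1.71 and 1.499), had its lowest *Scnn1a*. The same 2 isotype libraries had *Scnn1b* above their group mean (16.3 and 16.2 CPM), and anti–IL-4Rα replicate 5 (score 3.60) had the highest *Scnn1b* and *Scnn1g* of its group (14.2 and 5.62 CPM). The lowest *Scnn1a* of that group was in replicate 2, whose score (2.49) was below those of replicates 1, 4 and 5. Whether gland RNA diluted conjunctival RNA was not tested, and the covariate fit is no such test, because the score is tied to the anti–IL-4Rα group.

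**Figure D4:**
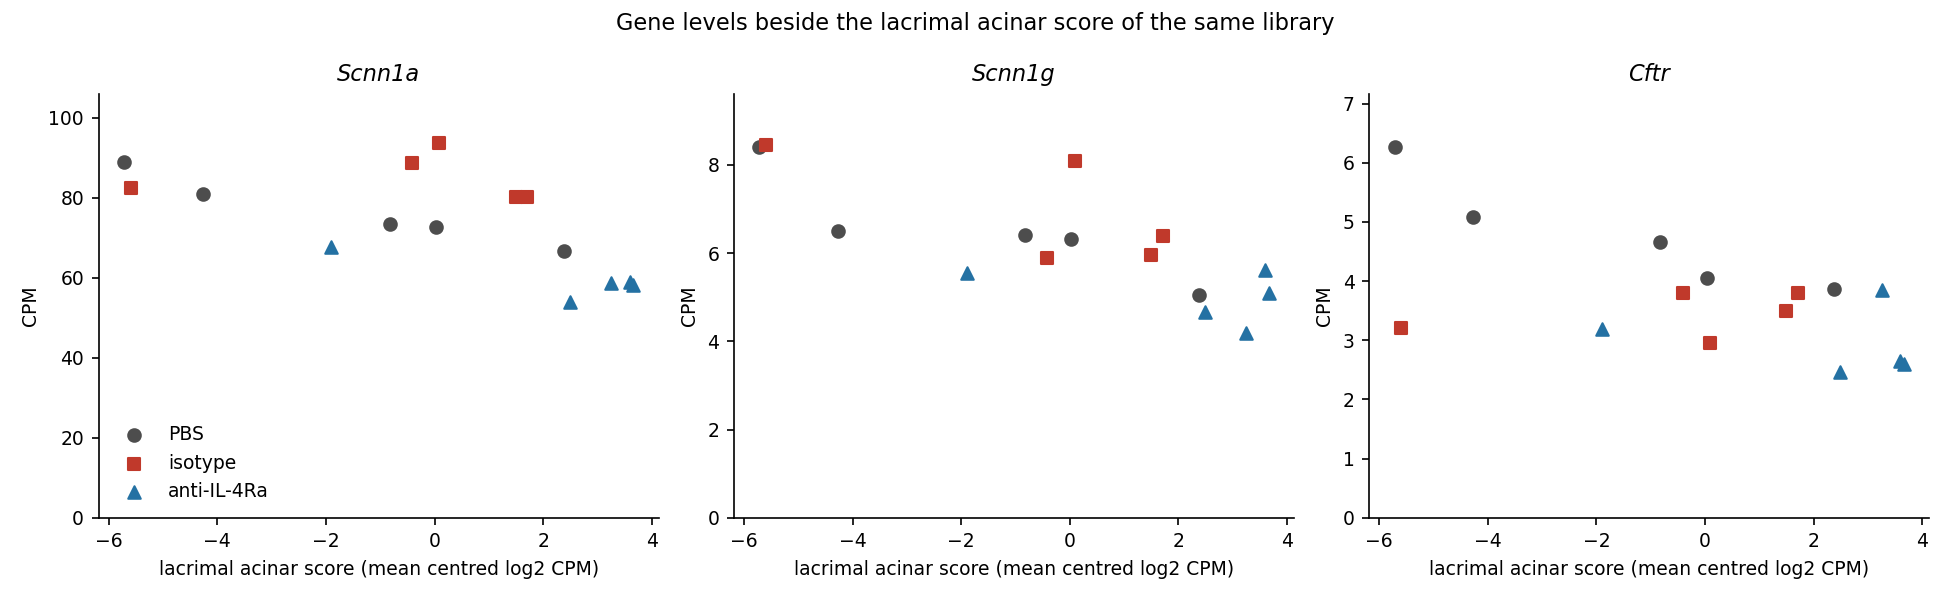
CPM of *Scnn1a*, *Scnn1g* and *Cftr* in each library against the score of lacrimal acinar genes (mean centered log2 CPM), colored by group. Anti–IL-4Rα replicate 3 (score −1.90) has *Scnn1a* at 67.7 CPM, and PBS replicate 5 (score 2.38) has 66.7 CPM, the lowest of the PBS group.

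Of proteases and regulators of ENaC (14 genes, 13 tested), 1 was higher in isotype versus PBS (median log2 fold change −0.09, against −0.01 over all genes), and 3 were higher and 2 lower in anti–IL-4Rα versus isotype (median 0.11, against 0.01). Against PBS, 1 was higher and 1 lower with anti–IL-4Rα. None of the 5 calls in anti–IL-4Rα versus isotype held in all fits with 1 library left out. The protease *Prss8* rose by 0.34 (SE 0.08, adjusted p = 0.0215) from 74.0 to 93.7 CPM, a call lost without isotype replicate 2, 3 or 5 (adjusted p 0.0564, 0.0588 and 0.0516). The protease inhibitor *Spint2*, the most abundant of the list per kb, rose by 0.30 (SE 0.09, adjusted p = 0.0444) from 332 to 408 CPM. This call was lost without any of PBS replicates 1 to 5 (adjusted p 0.0548, 0.0531, 0.0515, 0.0583 and 0.0533), isotype replicate 2, 3 or 5 (0.0999, 0.101 and 0.0863) or anti–IL-4Rα replicate 1, 2, 4 or 5 (0.100, 0.0630, 0.101 and 0.0834), at log2 fold changes of 0.23 to 0.37 over all 15 fits. The mineralocorticoid receptor *Nr3c2* rose by 0.82 (SE 0.21, adjusted p = 0.0251) from 6.76 to 11.95 CPM, lost without isotype replicate 3 (0.0676) or anti–IL-4Rα replicate 1, 4 or 5 (0.0548, 0.0631 and 0.0501). The kinase *Sgk1* fell by 0.32 (SE 0.08, adjusted p = 0.0253) from 137 to 110 CPM, lost without isotype replicate 2, 3 or 5 (0.0630, 0.0587 and 0.0520) or anti–IL-4Rα replicate 1, 2 or 4 (0.0634, 0.0588 and 0.0625). With the lacrimal score as a covariate *Spint2* was at 0.22 (adjusted p = 0.166, within 0.00810 to 0.166 over the 10 ways), *Prss8* at 0.30 (0.0848, within 0.00249 to 0.0848) and *Sgk1* at −0.21 (0.0524, within 0.00400 to 0.0524). *Hsd11b2*, encoding the enzyme that inactivates glucocorticoids, rose by 1.71 in isotype versus PBS (SE 0.40, adjusted p = 0.0134), or 1.07 without isotype replicate 2, whose 2.53 CPM stood above the 0.531 to 0.892 CPM of its group. It fell by 1.33 in anti–IL-4Rα versus isotype (SE 0.40, adjusted p = 0.0412). That call was lost without PBS replicate 1, 2 or 3 (adjusted p 0.0509, 0.0523 and 0.0515), isotype replicate 2, where the change was −0.69 (0.0925), isotype replicate 3 (0.0717) or anti–IL-4Rα replicate 1, 2, 4 or 5 (0.0938, 0.0901, 0.0793 and 0.0523), and it held in 3 of the 10 other ways (adjusted p 0.0147 to 0.269).

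*Cftr* (chromosome 6, plus strand, 18170687 to 18322768) was 6.27, 4.67, 5.08, 4.05 and 3.87 CPM in PBS replicates 1 to 5, 3.80, 3.21, 2.96, 3.49 and 3.79 CPM in isotype replicates 1 to 5, and 3.86, 2.46, 3.19, 2.59 and 2.65 CPM in anti–IL-4Rα replicates 1 to 5. Every library of either challenged group was below every PBS library, but only barely at PBS replicate 5, and the isotype and anti–IL-4Rα groups overlapped. It fell by 28.0% in isotype versus PBS (log2 fold change −0.47, SE 0.15, adjusted p = 0.0440) and by 38.4% in anti–IL-4Rα versus PBS (−0.70, SE 0.15, adjusted p = 0.0308). The difference between anti–IL-4Rα and isotype was −0.23 (adjusted p = 0.308).

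Both calls of *Cftr* lay near the threshold. Its log2 fold change stayed at −0.54 to −0.36 in isotype versus PBS and −0.81 to −0.58 in anti–IL-4Rα versus PBS whichever library was left out. In isotype versus PBS it did not pass without PBS replicate 1, 2 or 3 (adjusted p 0.103, 0.0745 and 0.0841), isotype replicate 2, 3, 4 or 5 (0.0935, 0.105, 0.0633 and 0.0585) or anti–IL-4Rα replicate 5 (0.0519). For anti–IL-4Rα versus PBS the same was seen without PBS replicate 1, 2 or 3 (0.0789, 0.0739 and 0.0583) or anti–IL-4Rα replicate 2, 4 or 5 (0.0631, 0.0653 and 0.0712). With the lacrimal score as a covariate the changes were −0.42 (adjusted p = 0.0559, within 0.0160 to 0.0745 over the 10 ways of testing) and −0.56 (0.143, within 0.000763 to 0.143). An antisense gene, *Gm15592*, shares 129 of 7765 exon bases with *Cftr* and had 0 counts. Whether reads from it were counted for *Cftr* was not tested.

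*Slc26a4* (chromosome 12, minus strand, 31519827 to 31559969) was the least abundant of the 8 in the PBS group. It was 1.16, 0.713, 0.761, 0.612 and 0.861 CPM in PBS replicates 1 to 5, 1.86, 1.42, 2.26, 0.839 and 2.11 CPM in isotype replicates 1 to 5, and 0.597, 0.874, 1.08, 4.92 and 1.13 CPM in anti–IL-4Rα replicates 1 to 5. Apart from replicate 4 all isotype libraries were above all PBS libraries, and a single high library, replicate 4 with 199 counts, made up most of the anti–IL-4Rα mean (1.72 ± 1.80 CPM). The change in isotype versus PBS was 1.04, a fold of 2.06 (SE 0.49, adjusted p = 0.158, exact permutation p = 0.0238), which did not pass in the model of all 15 libraries. It passed without anti–IL-4Rα replicate 4 (adjusted p 0.0225), and when only the PBS and isotype groups were fitted (0.0338, within 0.0338 to 0.277 over the 10 ways). The values of 0.00 for anti–IL-4Rα versus isotype (adjusted p = 0.997) and 1.05 for anti–IL-4Rα versus PBS (adjusted p = 0.222) became −0.88 (0.0774) and 0.16 (0.802) without that library.

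Other genes of the SLC26 family (10 genes, 7 tested) had 0 higher and 0 lower in isotype versus PBS and 2 higher and 1 lower in anti–IL-4Rα versus isotype, with medians of 0.00 and −0.03 against −0.01 and 0.01 over all genes. None of the 3 calls held in all fits with 1 library left out.

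*Ano1* (chromosome 7, minus strand, 144588549 to 144751974) had 55.5 ± 3.53, 51.6 ± 5.29 and 55.3 ± 3.69 CPM (mean ± SD, n = 5) in the PBS, isotype and anti–IL-4Rα groups. Its changes were −0.11 (SE 0.07, adjusted p = 0.329), 0.10 (adjusted p = 0.338) and −0.00 (adjusted p = 0.979) in isotype versus PBS, anti–IL-4Rα versus isotype and anti–IL-4Rα versus PBS. With the lacrimal score as a covariate the first of these was −0.15 and passed (adjusted p = 0.0386, within 0.0386 to 0.463 over the 10 ways). Of 9 other anoctamins, all tested, 3 were lower and 0 higher in isotype versus PBS (median −0.27), beside 7.49% and 9.53% of all tested genes. *Ano7* fell by 0.71 (SE 0.11, adjusted p = 0.00208) and *Ano8* by 0.27 (SE 0.06, adjusted p = 0.0125), and both passed whichever library was left out. In anti–IL-4Rα versus PBS 3 of the 9 were lower and 0 higher (median −0.367), beside 1.44% and 2.28% of all tested genes. None of these last 3 calls held in all fits with 1 library left out.

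Among other chloride channels and their regulators (16 genes, 14 tested), 2 were higher and 2 lower in isotype versus PBS (median −0.15), beside 9.53% and 7.49% of all tested genes. In anti–IL-4Rα versus isotype 0 were higher and 4 lower (median −0.06), beside 6.73% and 8.13%. *Clca1* had the largest of these changes. It rose by 2.06 in isotype versus PBS (SE 0.42, adjusted p = 0.00695) and fell by 3.45 in anti–IL-4Rα versus isotype (SE 0.47, adjusted p = 0.00121), at 0.415, 1.74 and 0.155 CPM in the PBS, isotype and anti–IL-4Rα groups. Over the 10 other ways of testing these changes were 0.36 to 2.17 and −3.71 to −0.46. *Clca3a1* fell by 0.46 in isotype versus PBS (SE 0.09, adjusted p = 0.00694), although reads from it and its near-identical neighbor *Clca3a2* may not have been told apart. The calls of *Clca1* in both comparisons and of *Clca3a1* here held whichever library was left out.

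Promoters in the RefSeq table (GRCm38.p6, 250 bases before to 50 after the start) could be matched to *Cftr*, *Slc26a4*, *Ano1*, *Scnn1b* and *Scnn1g*. The 3 printed here belong to the called genes with a matched promoter and to the gene with the largest fold, in capitals where they match a motif on either strand. The *Cftr* promoter lies at chr6:18170437-18170736 on the plus strand and the *Slc26a4* promoter at chr12:31559935-31560234 on the minus strand. That of *Scnn1g* is chr7:121734229-121734528 on the plus strand.

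Cftr: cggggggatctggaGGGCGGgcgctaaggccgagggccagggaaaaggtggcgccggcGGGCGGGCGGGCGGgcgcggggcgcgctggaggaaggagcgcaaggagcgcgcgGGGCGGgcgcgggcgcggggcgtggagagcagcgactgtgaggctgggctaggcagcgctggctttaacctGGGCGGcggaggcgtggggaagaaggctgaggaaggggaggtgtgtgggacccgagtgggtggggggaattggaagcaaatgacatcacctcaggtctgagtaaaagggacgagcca

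Slc26a4: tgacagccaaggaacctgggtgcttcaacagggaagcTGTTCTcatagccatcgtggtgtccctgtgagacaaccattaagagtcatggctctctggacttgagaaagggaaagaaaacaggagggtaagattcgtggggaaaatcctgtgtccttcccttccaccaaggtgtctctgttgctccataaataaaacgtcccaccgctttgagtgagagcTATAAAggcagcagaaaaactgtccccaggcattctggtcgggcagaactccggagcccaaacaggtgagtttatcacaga

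Scnn1g: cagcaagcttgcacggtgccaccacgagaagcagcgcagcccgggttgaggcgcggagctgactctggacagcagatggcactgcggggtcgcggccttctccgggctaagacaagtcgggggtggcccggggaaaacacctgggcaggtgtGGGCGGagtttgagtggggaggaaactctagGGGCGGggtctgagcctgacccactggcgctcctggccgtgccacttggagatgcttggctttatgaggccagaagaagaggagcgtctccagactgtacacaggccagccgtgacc

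Searched on both strands were the STAT6 motif TTCNNNNGAA (in 6.95% of all 32851 promoters), the STAT motif TTCNNNGAA (8.3%), the glucocorticoid or mineralocorticoid receptor half-site AGAACA (19.0%), the forkhead motif TGTTTAC (3.65%), the GC box GGGCGG (35.7%) and the TATA box TATAAA (13.6%). The *Cftr* window holds 6 GC boxes, at −236, −192, −188, −184, −138 and −67 from the start, 3 of which overlap one another, and the *Scnn1g* window holds 2, at −98 and −67. The *Slc26a4* window holds a TATA box at −31 and, on the other strand, the receptor half-site at −213, read there as TGTTCT. The letters of both STAT motifs and of the forkhead motif are not in these 3 windows. Such matches describe the sequence and were not tested for binding.

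*Slc12a2* (chromosome 18, plus strand, 57878678 to 57946821) had 90.3 ± 6.08, 82.8 ± 13.5 and 83.5 ± 7.58 CPM (mean ± SD, n = 5) in the PBS, isotype and anti–IL-4Rα groups. Its changes were −0.13 (adjusted p = 0.418) in isotype versus PBS, 0.01 (adjusted p = 0.943) in anti–IL-4Rα versus isotype and −0.11 (adjusted p = 0.545) in anti–IL-4Rα versus PBS. The lowest value, 61.5 CPM, was that of isotype replicate 2. Other cation–chloride cotransporters and the WNK–SPAK kinases that regulate them (14 genes, 12 tested) had 0 higher and 0 lower in isotype versus PBS and 2 higher in anti–IL-4Rα versus isotype (medians 0.01 and −0.04). *Stk39*, which encodes SPAK, rose there by 0.67 (SE 0.15, adjusted p = 0.0163) from 27.9 to 44.3 CPM and passed whichever library was left out. With the lacrimal score as a covariate its change was 0.51 (adjusted p = 0.0560), and with only these 2 groups fitted it was 0.67 (adjusted p = 0.0581; 0.000604 to 0.0581 over the 10 other ways of testing).

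*Atp12a* (chromosome 14, plus strand, 56365068 to 56388550) was 60.4, 42.4, 48.5, 41.2 and 54.4 CPM in PBS replicates 1 to 5, 40.4, 43.9, 29.1, 35.7 and 40.1 CPM in isotype replicates 1 to 5, and 36.9, 27.1, 35.9, 48.1 and 31.5 CPM in anti–IL-4Rα replicates 1 to 5. PBS replicates 1 and 5 were the highest of the 15 libraries with replicate 3 next, and all groups overlapped. No comparison passed, at −0.38 (SE 0.15, adjusted p = 0.0953) in isotype versus PBS, −0.46 (adjusted p = 0.0932) in anti–IL-4Rα versus PBS and −0.08 (adjusted p = 0.754) in anti–IL-4Rα versus isotype. The antisense gene *Gm10873* shares 557 of the 4016 exon bases of *Atp12a* and had 63 counts over all libraries, beside 36426 for *Atp12a*.

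Other P-type ATPases of sodium, potassium and protons and FXYD proteins (16 genes, 15 tested) had 1 higher and 5 lower in isotype versus PBS (median −0.31). Of all tested genes 9.53% were higher and 7.49% lower there. In anti–IL-4Rα versus isotype 0 were higher and 2 lower (median 0.14), beside 6.73% and 8.13% of all tested genes. *Fxyd5* rose by 0.63 (SE 0.14, adjusted p = 0.00985) and *Fxyd1* fell by 0.55 (SE 0.13, adjusted p = 0.0134) in isotype versus PBS. *Atp1b3* fell by 0.29 in anti–IL-4Rα versus isotype (SE 0.07, adjusted p = 0.0168). These 3 calls held without any single library.

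DUOX oxidases make the hydrogen peroxide with which lactoperoxidase oxidizes thiocyanate and iodide, ions that pendrin can carry. In the list of DUOX, lactoperoxidase and iodide transport genes (7 of 7 tested) 2 were higher and 0 lower in isotype versus PBS (median 0.22). Of all tested genes 9.53% were higher and 7.49% lower there. In anti–IL-4Rα versus isotype 0 were higher and 4 lower (median −0.47), beside 6.73% and 8.13% of all tested genes. *Duox2* rose by 0.96 (SE 0.20, adjusted p = 0.00780) from 5.35 to 10.4 CPM and fell by 1.44 (SE 0.20, adjusted p = 0.00161) to 3.83 CPM with anti–IL-4Rα. Its maturation factor *Duoxa2* rose by 1.24 (SE 0.28, adjusted p = 0.0115) and fell by 1.48 (SE 0.29, adjusted p = 0.00867), at 0.696, 1.65 and 0.586 CPM. *Duox1* fell by 0.49 in anti–IL-4Rα versus isotype (SE 0.10, adjusted p = 0.00863). These 5 calls held whichever library was left out. *Duoxa1* also fell in anti–IL-4Rα versus isotype, by 0.35 (SE 0.09, adjusted p = 0.0272). Its call was lost without isotype replicate 3 or 5 (adjusted p 0.0688 and 0.0603) or anti–IL-4Rα replicate 1, 2, 4 or 5 (0.0530, 0.0627, 0.0625 and 0.0591), and with the lacrimal score (0.0948) or only the 2 groups (0.0548, within 0.00511 to 0.0948 over the 10 ways), at changes of −0.42 to −0.31 throughout. Lactoperoxidase (*Lpo*), the most abundant of the list per kb, was not called and varied widely within groups, at 157 ± 278, 203 ± 213 and 1333 ± 946 CPM.

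Of proton and bicarbonate transporters and carbonic anhydrases (15 genes, 14 tested), 1 was higher and 2 lower in isotype versus PBS (median 0.03), and 1 higher and 3 lower in anti–IL-4Rα versus isotype (median −0.19). *Slc9a3* fell by 0.69 (SE 0.17, adjusted p = 0.0162) and *Car14* by 0.75 (SE 0.19, adjusted p = 0.0166) in the first of these. *Slc9a4* rose by 0.88 (SE 0.21, adjusted p = 0.0179) in the second. These 3 calls held without any single library, and with the lacrimal score as a covariate *Slc9a4* was at 0.88 (adjusted p = 0.0545, 0.00127 to 0.0545 over the 10 ways).

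Aquaporins (11 genes, 8 tested) had 0 higher and 1 lower in isotype versus PBS (median −0.05), where *Aqp7* fell by 0.80 (SE 0.20, adjusted p = 0.0178). In anti–IL-4Rα versus isotype 1 was higher and 2 lower (median 0.16). *Aqp3*, the most abundant per kb, fell by 0.60 (SE 0.14, adjusted p = 0.0181) from 686 to 453 CPM, and did not pass without isotype replicate 3 (adjusted p 0.0531) or with the lacrimal score as a covariate (−0.48, adjusted p = 0.0526, within 0.000780 to 0.0526 over the 10 ways). Of epithelial potassium channels (12 genes, 10 tested), receptors and scaffolds of fluid secretion (11 of 11) and ionocyte markers (6 tested), 0, 0 and 0 were higher and 0, 1 and 1 lower in anti–IL-4Rα versus isotype, with medians of 0.24, 0.10 and −0.21. The ionocyte marker called was *Atp6v1c2*, which fell by 0.34 (adjusted p = 0.0270) and did not pass without isotype replicate 3 (adjusted p 0.0711) or anti–IL-4Rα replicate 1, 2 or 4 (0.0667, 0.0627 and 0.0651). Its call against isotype was also lost with the lacrimal score as a covariate (adjusted p 0.0973, within 0.00484 to 0.0973 over the 10 ways). With anti–IL-4Rα it was also lower than in PBS, by 0.37 (adjusted p = 0.0397), except without PBS replicate 1, 2, 3 or 4 (0.0983, 0.0786, 0.0812 and 0.0847), isotype replicate 3 or 4 (0.0508 and 0.0532) or anti–IL-4Rα replicate 1, 2, 4 or 5 (0.0877, 0.0851, 0.0832 and 0.0634). The call against PBS was also lost with no filter, the lacrimal score or only the 2 groups (adjusted p 0.00433 to 0.170 over the 10 ways).

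Of ligands, receptors and signaling genes of IL-4 and IL-13 (12 of 12 tested), 5 were higher and 1 lower in isotype versus PBS (median 0.26), and 0 higher and 5 lower in anti–IL-4Rα versus isotype (median −0.42). *Il13* rose by 1.30 (SE 0.27, adjusted p = 0.00717) in isotype versus PBS. *Socs1* rose by 0.81 (SE 0.16, adjusted p = 0.00647) and fell by 0.80 (SE 0.16, adjusted p = 0.00993), and *Cish* fell by 0.73 (SE 0.10, adjusted p = 0.00168) with anti–IL-4Rα. Only 2 of the 12, *Socs1* and *Il4ra* (the latter named after its values were seen), were called higher in the first comparison and lower in the second. *Il13ra2* was lower with anti–IL-4Rα than in either other group, by 0.78 against isotype (SE 0.16, adjusted p = 0.00983) and 1.32 against PBS (SE 0.16, adjusted p = 0.00262). These 6 changes passed in all fits with 1 library left out. *Il13ra2* also fell by 0.54 in isotype versus PBS (SE 0.15, adjusted p = 0.0295), a call lost without PBS replicate 1 or 5 (adjusted p 0.0680 and 0.0552) or isotype replicate 2 or 3 (0.0713 and 0.0689).

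Genes known to respond to IL-4 and IL-13 (12 of 12 tested), some of which leukocytes and stromal cells also express, had 6 higher and 0 lower in isotype versus PBS (median 0.75), and 0 higher and 5 lower in anti–IL-4Rα versus isotype (median −0.72). Leukocyte markers had 2 of 7 higher in isotype versus PBS (median 0.80), and which cells changed was not tested. *Postn* rose by 1.24 (SE 0.16, adjusted p = 0.000637) and fell by 1.28 (SE 0.16, adjusted p = 0.000594), at 314, 740 and 305 CPM. *Alox15* rose by 2.42 (SE 0.39, adjusted p = 0.00208) and fell by 2.29 (SE 0.38, adjusted p = 0.00446), at 33.1, 178 and 36.4 CPM. *Chil4* was near 0 in the PBS and anti–IL-4Rα groups (0.0282 and 0.00774 CPM) beside 116 ± 117 CPM in the isotype group. Of cytokines known to act on ion transport (7 genes, 4 tested), 3 were higher in isotype versus PBS (median 1.59). *Il1b* rose by 2.02 (SE 0.39, adjusted p = 0.00547) and fell by 1.81 with anti–IL-4Rα (SE 0.39, adjusted p = 0.0130), and *Il17c* rose by 2.78 (SE 0.70, adjusted p = 0.0178). The change of *Il1b* was −1.61 with the lacrimal score as a covariate (adjusted p = 0.0536) and −1.81 with only the 2 groups fitted (adjusted p = 0.0514; 6.36e-05 to 0.0536 over the 10 ways). In the main fit none of the 8 ion transport genes was called both higher in isotype versus PBS and lower in anti–IL-4Rα versus isotype. With the lacrimal score as a covariate *Scnn1a* was (0.19, adjusted p = 0.0368, within 0.0368 to 0.301 over the 10 ways, then −0.43, adjusted p = 0.00483). The difference between the comparisons was not tested for any gene.

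Over the 15 lists, 172 genes in all of which 153 were tested, 20 were higher and 15 lower in isotype versus PBS (22.9% called, against 17.0% of all tested genes, median 0.01). In anti–IL-4Rα versus isotype 9 were higher and 30 lower (25.5%, against 14.9%, median −0.05), and in anti–IL-4Rα versus PBS 3 were higher and 12 lower (9.8%, against 3.72%, median −0.05). The lists were not chosen blind to these data, so their shares are no test of them. The 39 genes called in anti–IL-4Rα versus isotype became 17 without isotype replicate 3, 21 without anti–IL-4Rα replicate 1 and 24 without anti–IL-4Rα replicate 4. They became 15 with the lacrimal score as a covariate and 21 with only the 2 groups fitted. The 15 genes called in anti–IL-4Rα versus PBS became 2, 4 and 5 without PBS replicates 1, 2 and 4, and 4, 6, 26, 8 and 5 without anti–IL-4Rα replicates 1 to 5. They became 32 by DESeq2, 35 by voom and 4 with the lacrimal score.

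**Figure D5:**
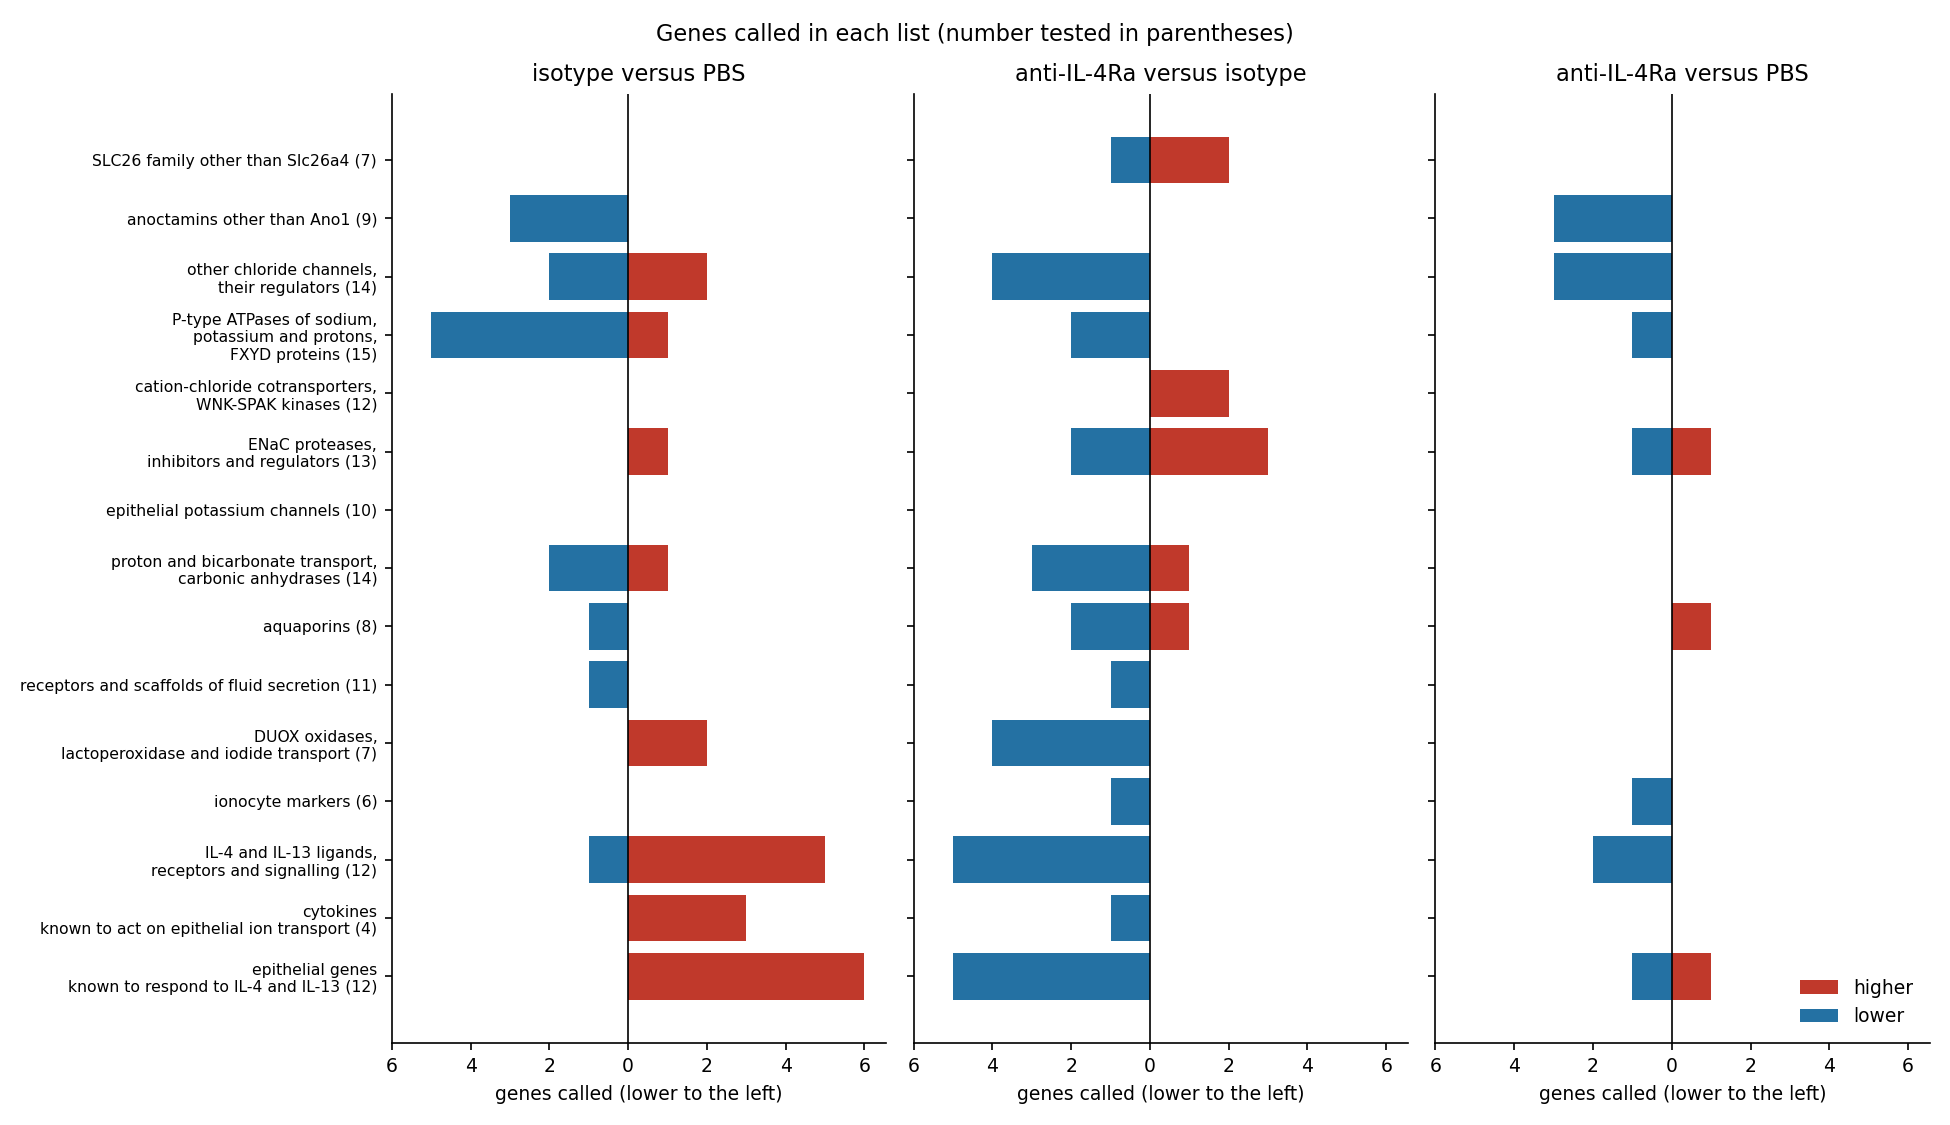
Number of tested genes called higher (to the right) and lower (to the left) in each list of related genes, for the 3 comparisons (5 libraries per group). Over all lists, 9 genes were higher and 30 lower in anti–IL-4Rα versus isotype.

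The genes closest to each of the 8 across libraries were found from the root mean square (RMS) difference of log2 CPM scaled to mean 0 and SD 1 (n = 15 libraries). These neighbors were picked by this measure, after the values were seen. They were *Teddm3* (0.308), *Gm6551* (0.311) and *Gna15* (0.316) for *Scnn1a*, *Plk3* (0.391) for *Scnn1b* and *Ppfia3* (0.344) for *Scnn1g*. *Cftr* was closest to *Ankrd29* (0.315), *Slc26a4* to *Cxcl3* (0.362), *Ano1* to *March6* (0.431), *Atp12a* to *Serpinb3c* (0.534) and *Slc12a2* to *Cbln1* (0.397). The median over all tested genes was 1.36 to 1.37. Within the 8, the ENaC subunits were closest to each other, at 0.564 for *Scnn1a* and *Scnn1g*, 0.647 for *Scnn1b* and *Scnn1g* and 0.72 for *Scnn1a* and *Scnn1b*.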

How the data were processed

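The values were estimated counts per gene, as deposited by the authors for 15 conjunctival libraries. The authors made stranded mRNA libraries and mapped read pairs uniquely to the B38 genome with the Ensembl R100 gene model in Omicsoft Array Studio; its version, its counting method and whether strand was used in counting are not stated. Groups and replicate numbers came from the labels. Between 6222 and 8005 genes per library had values that were not whole, and these were rounded. Names, positions and exon lengths were taken from GENCODE M21 (GRCm38), in which 55227 of the 55487 genes were found and 260 were not.

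Genes with ≥10 counts in ≥5 libraries were tested with edgeR 4.0.16 in R 4.3.3 (TMM factors, quasi-likelihood test, 1 model of 3 groups, Benjamini-Hochberg adjustment over 19006 genes). Genes were called at an adjusted p under 0.05. Log2 CPM used a prior count of 2. Exact permutation tests over all 252 splits of 5 and 5 libraries reach a two-sided p of 0.00794 at the smallest. Ratios, promoter motifs and plots were made in Python 3.11.15 with pandas 2.3.3, scipy 1.17.1 and matplotlib 3.10.9. The code was tested on simulated data. Total counts ranged from 48622246 to 87745024 (median 55243773), and replicates of a group differed by more than counting error (chi-square per degree of freedom 19.8 to 1080 over 30 pairs), so tests used the spread between libraries.

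In each list of related genes the most abundant gene per kb of exon and those with the lowest adjusted p were named. Members and lists were chosen with earlier results of these data known. Alternatives were upper quartile factors, DESeq2 1.42.0, limma 3.58.1 (voom with quality weights, log2(CPM + 1) and log2(FPKM + 1)), no filter, edgeR's own filter, only the 2 groups compared, a block for replicate number, the lacrimal score as a covariate, and each library left out in turn. Proteins were not analysed here.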

Additional observations from a re-analysis of the deposited data

Results flagged for a closer look

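In 18 of 225 groups of 5 libraries the highest or lowest value stood far from the other 4 (chance gives about 1 in 20). Among the 8 ion transport genes this was seen once, for *Slc26a4* in anti–IL-4Rα replicate 4, at 4.92 CPM beside 0.597 to 1.13 CPM. In PBS replicate 5 lacrimal gland transcripts stood apart, with *Lpo* at 648 CPM (others 1.65 to 102), the lacrimal acinar sum at 3900 CPM (26.2 to 586) and the sum of tear proteins at 48900 CPM (0.055 to 6960).

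PBS replicate 1 was high for *Aqp9* at 22.1 CPM (17.2 to 17.6), *Fxyd5* at 35.9 CPM (31.2 to 32.3) and *Il1b* at 6.13 CPM (3.73 to 4.27). PBS replicate 2 was high for *Aqp7* at 6.87 CPM (2.98 to 3.78), and PBS replicate 4 was low for *Hsd11b2* at 0.21 CPM (0.334 to 0.357). Isotype replicate 3 was high for *Car12* at 196 CPM (171 to 178) and *Clca3a2* at 149 CPM (105 to 116). Isotype replicate 2 was low for *Duox1* at 52.2 CPM (62.6 to 64.9) and *Fxyd1* at 24.2 CPM (31.3 to 33.7), and high for *Hsd11b2* at 2.53 CPM (0.531 to 0.892).

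Anti–IL-4Rα replicate 3, the library of its group with the fewest lacrimal transcripts, was high for *Aqp3* at 601 CPM (393 to 439), *Fxyd5* at 52.0 CPM (35.0 to 39.6) and *Stat6* at 156 CPM (137 to 142). Anti–IL-4Rα replicate 5 was high for *Ano8* at 72.7 CPM (62.7 to 64.0). The causes were not tested.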

How the results depend on the processing

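Of the values of the 8 genes under the 10 other ways of testing, 213 kept their direction and side of the threshold, 11 lost a call, 5 gained one and 11 changed sign. *Scnn1a* in anti–IL-4Rα versus isotype passed in all. *Scnn1g* in that comparison did not pass with voom (adjusted p 0.0559), limma on log2(FPKM + 1) (0.0509), no filter (0.0619), a replicate block (0.0804), the lacrimal score (0.163) or only the 2 groups (0.0680), out of 0.0135 to 0.163, each leaving 1 of the 8 called (1 to 3 with a library left out). In isotype versus PBS 0 were called with no filter (*Cftr* at 0.0745), and 2 with the lacrimal score, where *Ano1* (0.0386 of 0.0386 to 0.463) and *Scnn1a* (0.0368 of 0.0368 to 0.301) passed in place of *Cftr*, or with only the 2 groups (0 to 2 with a library left out). In anti–IL-4Rα versus PBS 0 were called with the lacrimal score and 1 with only the 2 groups, where *Cftr* was at 0.0530 (0 to 2 with a library left out). DESeq2 called *Scnn1b* in anti–IL-4Rα versus isotype (0.0422 of 0.0422 to 0.276) and *Atp12a* in anti–IL-4Rα versus PBS (0.0426 of 0.0426 to 0.311). *Cftr* in isotype versus PBS was −0.17 by limma on log2(FPKM + 1).

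Signs that changed were of values that lay near 0 in the main fit. For *Slc26a4* that value depended on anti–IL-4Rα replicate 4, without which it was −0.88. *Slc26a4* in anti–IL-4Rα versus isotype was −0.30 with voom, −0.14 and −0.0479 by limma on log2(CPM + 1) and log2(FPKM + 1), −0.00862 with no filter, −0.26 with the block and −0.0763 with the lacrimal score (−0.88 to 0.22 with a library left out). *Atp12a* there was 0.00332 with voom (−0.20 to 0.00979), and *Slc12a2* −0.0807 with voom and −0.00650 with the lacrimal score (−0.0783 to 0.0836). *Ano1* in anti–IL-4Rα versus PBS was 0.00195 with DESeq2 and 0.00221 with voom (−0.0285 to 0.0362). With a library left out, the ratio of *Scnn1b* to *Scnn1a* differed by −0.0910 to 0.0201 between isotype and PBS, and that of *Scnn1g* to *Scnn1a* by −0.15 to 0.00724, by −0.0133 to 0.14 between anti–IL-4Rα and isotype and by −0.0509 to 0.0518 between anti–IL-4Rα and PBS.

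Genes called over the related lists were 35 in isotype versus PBS (24 to 37 with a library left out), 39 in anti–IL-4Rα versus isotype (17 to 54), with 15 under the lacrimal score and 21 with only the 2 groups, and 15 in anti–IL-4Rα versus PBS (2 to 26), with 32 by DESeq2, 35 by voom and 4 under the lacrimal score. Over all genes, anti–IL-4Rα versus isotype held 684 with the lacrimal score, 675 with only the 2 groups, 1749 with no filter and 1859 with the block, and anti–IL-4Rα versus PBS 1966 by DESeq2, 2318 by voom, 327 with no filter, 312 with the block and 86 with the lacrimal score. Isotype versus PBS held 2115 with the block. Replicate numbers did not pair libraries (correlations −0.38 to 0.45 between groups). *Spint2* in anti–IL-4Rα versus isotype was at an adjusted p of 0.0646 with no filter and 0.104 with only the 2 groups. *Hsd11b2* in isotype versus PBS was at an adjusted p of 0.0656 by limma on log2(FPKM + 1), and *Nr3c2*, *Prss8* and *Sgk1* in anti–IL-4Rα versus isotype at 0.0733, 0.0626 and 0.0520 with only the 2 groups. Over the 10 ways, changes in isotype versus PBS came down to 0.28 for *Slc26a4*, 0.40 for *Il13* and 0.47 for *Duox2* and *Duoxa2*. In anti–IL-4Rα versus isotype *Duox2* came to −0.67 and *Duoxa2* to −0.55 at the smallest. Fewer libraries are fitted with only the 2 groups, and for the other changes the cause was not tested.

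Limits remain. Whole tissue was measured, so cell types are not separated, and lacrimal transcripts differed between libraries for reasons not tested. With 5 libraries per group small changes are missed. The methods name 2 outliers without saying which, and all 15 libraries were kept. The gene model used for positions is older than the one counted. Transcripts were measured, not proteins or transport.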
